A study of Mus musculus with 65 samples.

Results

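Mammary glands that carried 1 copy of Tgfb1 were compared with wild-type glands in mice that received no radiation. The comparison used 6 of the 65 samples of the series, which are 6 of its 17 gland samples. They were chosen by their titles: 3 arrays of TGFb-HT_sham-1wk glands against 3 arrays of wild-type_sham-1wk glands. All 6 glands came from Balb/c littermates aged 10 weeks, and every mouse, of either genotype, was given an estrogen and progesterone injection 2 days before the sham treatment to align the cycles. The inguinal (4th) glands were taken 1 week after sham treatment, their lymph nodes were cut out, and RNA came from the rear portion of each gland. Labelling started from 80 ng of RNA per gland. The remaining 11 gland arrays were taken 1 or 4 weeks after 10 cGy (2 heterozygous arrays at 1 week and 3 in each other group). Their age is also given as 10 weeks at both times, and whether it counts to treatment or to collection is not settled here. These 11 arrays are used to ask whether a difference seen without radiation was also present with it. The series holds no sham glands at 4 weeks, so in the 4-week comparisons radiation and time after treatment cannot be told apart. The irradiated arrays also enter the spread behind every SE, interval and p-value of the main fit, the choice of probe sets and the filter on low values. The sources used here do not say which part of the gene was deleted, nor whether repeats are separate animals, so the p-values measure only the spread between these arrays, which may be partly technical. With 3 arrays against 3, an exact permutation test on a single gene could not go below p = 0.10, so the limma fit across all genes carried the tests.

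TGF-beta 1 is secreted in a latent complex and is released by integrins and proteases. The free ligand joins a pair of receptor kinases, which pass the signal to Smad proteins in the nucleus. In the mammary gland it is known for restraining epithelial proliferation and for driving fibroblasts to make collagen and other matrix. The comparison therefore addresses what 1 missing copy does to gland mRNA before any radiation is given.

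Values are on the log2 scale of the deposited intensity, differences are heterozygous minus wild-type, and each has its standard error (SE) from limma. Of 18194 measured genes 12945 passed the filter on low values and were tested. The tissue carried the markers its label calls for: the mean of the luminal epithelium list lay between 9.62 and 10.37 and that of the white adipocyte list between 11.52 and 11.95 in the 6 arrays. Other tissue was also present, unevenly. The mean of 21 skeletal muscle genes was 4.54, 10.95 and 8.36 in the wild-type arrays and 6.90, 4.45 and 4.78 in the heterozygous arrays, so wild-type array 2 and, less so, wild-type array 3 were rich in muscle RNA. The list mean in the poorest arrays, 4.45 and 4.54, was close to the filter of 4.15, and no probe-level background was used. Myl1, a myosin light chain, read 7.59 in heterozygous array 2, its lowest, and 12.79 in wild-type array 2, its highest. All 21 muscle genes were lower in the heterozygous mean, with a median of -2.58. None had groups that were separate, beside 4.14% lower with separate groups over all tested genes. The mean of 8 B cell and lymph node genes was 7.19, 5.06 and 5.55 in wild-type and 7.60, 5.16 and 5.61 in heterozygous arrays, highest in array 1 of both groups although the node had been removed. Ighm, an immunoglobulin gene of this list, had further, dimmer probe sets above the filter that do not enter the mean. Some were higher in every heterozygous array, by 2.20, 2.19, 1.67 and 1.44. Others, at 0.40 and 0.13, had overlapping groups, and the cause was not tested. In bulk RNA, fewer cells of a type and less RNA per cell cannot be told apart.

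**Figure D1:**
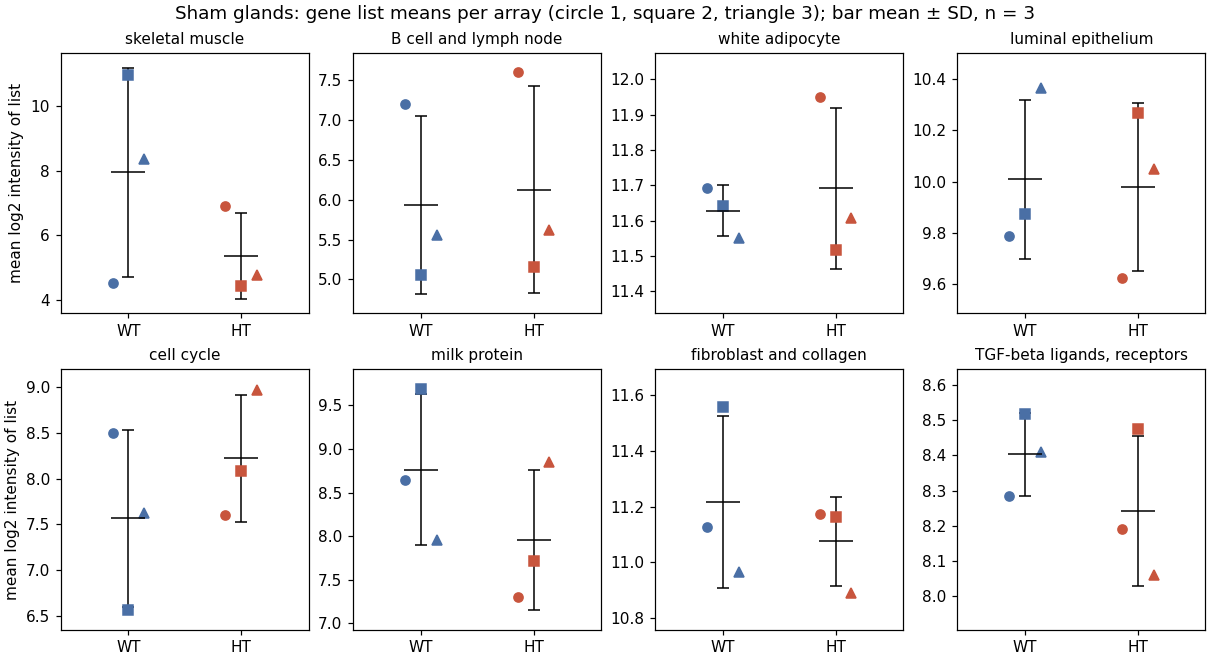
Mean log2 intensity of 8 gene lists in each of the 6 sham gland arrays, wild-type (WT, blue) and heterozygous (HT, red), with the group mean and SD as black bars (n = 3) and a separate y axis per panel. Skeletal muscle reached 10.95 in wild-type array 2 and stayed at 6.90 or below in the heterozygous arrays, and the groups overlapped in all 8 panels.

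Tgfb1 itself was lower in the heterozygous glands. Its level was 5.10, 5.04 and 5.13 in the wild-type arrays and 4.48, 4.09 and 4.67 in the heterozygous arrays. Heterozygous array 2 thus lay below the filter level of 4.15, where values are the least certain. Every heterozygous array lay below every wild-type array. The difference was -0.68 (SE 0.22), with a 95% interval of -1.14 to -0.21 and an unadjusted limma p = 0.0072 (adjusted p = 0.965, 12945 genes). A second Tgfb1 probe set was dimmer, below the filter, and read 3.89, 3.67 and 3.67 in wild-type against 4.08, 3.87 and 3.80 in heterozygous arrays, so only the brighter probe set showed the lower level, and the mean of both gave -0.25. In irradiated glands the brighter probe set differed by -1.32 (SE 0.24) at 1 week and -0.51 (SE 0.22) at 4 weeks, the latter -0.32 without wild-type 4-week array 2. The 1-week heterozygous arrays read 3.85 and 3.81, also below the filter level.

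The genes next to Tgfb1 on chromosome 7 did not share its lower level. Within 20 protein-coding gene positions on either side, 21 of 40 neighbours were tested, with differences between -0.28 and 0.33 and a median of 0.06. Groups did not overlap for Ceacam2, a cell adhesion gene, at 0.17 (SE 0.14), nor for Ccdc97, the next gene, at 0.12 (SE 0.10), and both were higher, not lower, in heterozygotes. Their unadjusted limma p was 0.23 and 0.24, and 3.80% of all tested genes were higher with separate groups.

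**Figure D2:**
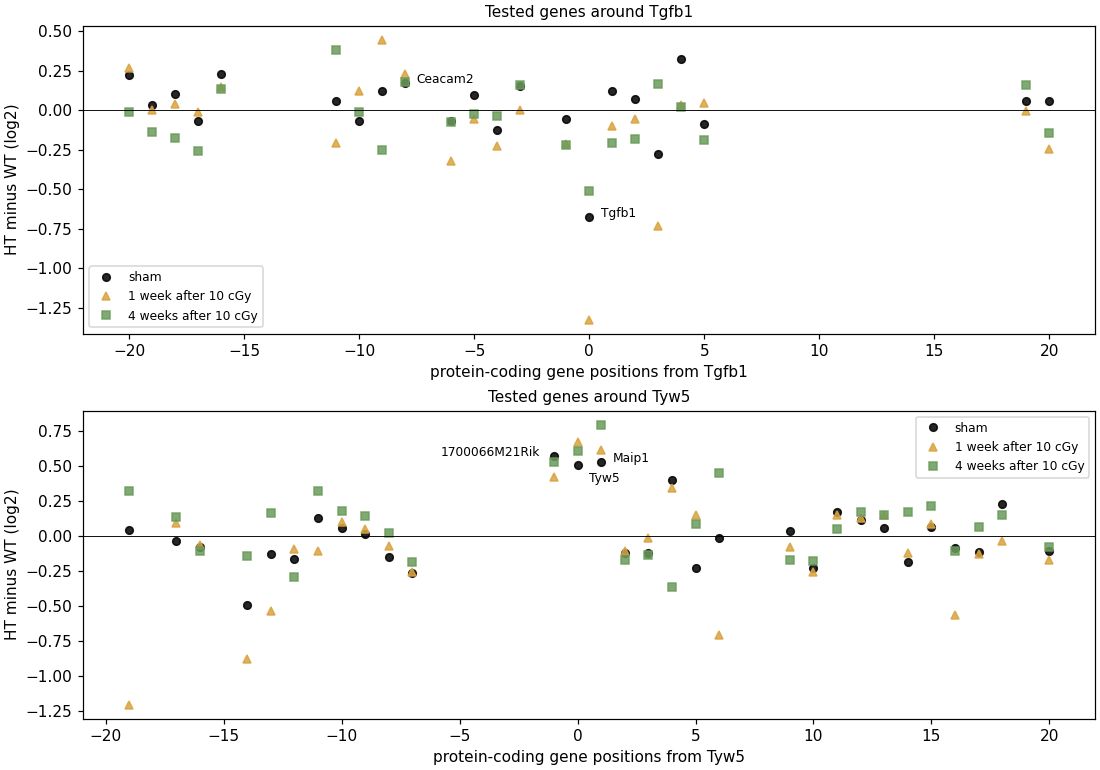
Heterozygous minus wild-type difference (log2) of tested genes around Tgfb1 (upper panel) and Tyw5 (lower panel), by their position in protein-coding genes from the centre gene, in sham glands (black), 1 week (yellow) and 4 weeks (green) after 10 cGy. Tgfb1 lies at -0.68 in sham glands among neighbours between -0.28 and 0.33, and the adjacent genes 1700066M21Rik, Tyw5 and Maip1 lie at 0.51 to 0.57.

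Across the whole transcriptome, no gene passed the adjusted threshold of 0.05 in limma (0 of 12945 tested, 0%). The smallest limma adjusted p was 0.38 when fitted on the 6 sham glands alone and 0.965 in the main fit on all 17 glands. At an unadjusted p under 0.05, 181 genes were higher (1.40%) and 279 lower (2.16%), 460 in all, fewer than the 647 that such a threshold passes on average where nothing differs. Groups did not overlap for 492 genes that were higher (3.80%) and 536 that were lower (4.14%). The unadjusted count depended on single arrays: it was 1022 without wild-type array 1 and 788 without heterozygous array 2. Of the 460 genes 39.4% were higher, against 52.6% after quantile normalization, 51.3% with no filter and 59.0% without heterozygous array 1. The median difference over all tested genes was -0.002. Single genes below are therefore given as measured values, none of them past the threshold over all genes. Without heterozygous array 3, 2 genes passed limma: the keratin Krt4 at 1.74 (adjusted p = 0.0145) and Abhd1, a hydrolase-fold protein, at -1.87 (adjusted p = 0.0472).

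Among the components of the TGF-beta pathway, 11 of 15 tested ligands, receptors, activators and latent binding proteins were lower, with a median of -0.13. Tgfb1 itself, lower by genotype, is counted among them. Groups were separate for 2 lower and 0 higher members, beside 4.14% lower and 3.80% higher over all tested genes. The integrin subunit Itgb8, part of a receptor that releases TGF-beta from its latent complex, read 7.31, 7.53 and 7.46 in wild-type and 6.10, 7.48 and 6.56 in heterozygous arrays, a difference of -0.72 (SE 0.27). Heterozygous array 2 matched the wild-type level, so the groups overlapped. The type I receptor Tgfbr1 differed by -0.25 (SE 0.13), with groups that did not overlap, and the latent TGF-beta binding protein Ltbp1 by -0.38 (SE 0.20). The best expressed members were the type II receptor Tgfbr2 at -0.09 (SE 0.22), a sign that turned without wild-type array 2 or heterozygous array 3, and the co-receptor Tgfbr3 at -0.19 (SE 0.15). Dimmer probe sets above the filter gave 0.007 for Tgfbr2 and, in the opposite direction, 0.15 for Tgfbr3. Without wild-type array 2, the muscle-rich array, only 7 of 15 members were lower and the median was 0.01. With muscle content as a covariate the median was -0.01, with 9 of 15 lower. Other arrays moved it as far: it was -0.27 with 13 of 15 lower without heterozygous array 2, -0.25 without wild-type array 1, -0.05 without heterozygous array 3, and -0.02 with the mean of probe sets.

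Of 12 Smads and their inhibitors 10 were lower, with a median of -0.16 (-0.06 without heterozygous array 1 and -0.08 without wild-type array 2). An unadjusted limma p under 0.05 was reached by 0 members, beside 1.40% higher and 2.16% lower over all tested genes. The common Smad4, the partner of all receptor-activated Smads, differed by -0.24 (SE 0.15), the Smad co-repressor Ski by -0.19 (SE 0.11) and the ubiquitin ligase Smurf2 by -0.17 (SE 0.10). Smurf2 was the 1 member whose groups did not overlap, beside 4.14% lower with separate groups over all tested genes. Dimmer probe sets above the filter gave 0.08, in the opposite direction, and -0.19 for Smurf2. Those of Smad4 gave -0.19 and -0.07, and that of Ski gave -0.03. With the 3 muscle-rich arrays left out (wild-type 2 and 3, heterozygous 1), 5 of 12 were lower and the median was 0.07, on 1 wild-type and 2 heterozygous arrays.

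Known targets of TGF-beta went both ways. Of 21 tested, 9 were lower and 12 higher, with a median of 0.04, beside -0.002 over all tested genes. Groups were separate for 4 lower and 0 higher targets, beside 4.14% lower and 3.80% higher over all tested genes. An unadjusted limma p under 0.05 was reached by 3 lower and 0 higher targets, beside 2.16% and 1.40% over all tested genes. The direction of the median turned with single arrays: it was -0.24 with 13 of 21 lower without heterozygous array 2, -0.11 without wild-type array 1 and -0.05 without wild-type array 3. The targets with separate groups were matrix genes. Lox, which cross-links collagen and elastin, read 8.98, 9.37 and 8.85 in wild-type and 8.63, 8.64 and 7.84 in heterozygous arrays, at -0.70 (SE 0.32). Elastin, Eln, stood at -0.70 (SE 0.34) with overlapping groups, and fibronectin, Fn1, at -0.47 (SE 0.23) with groups that did not overlap. A second, dimmer Eln probe set differed by 0.05. Fn1 and, below, Sparc, Nnat, Cxcr4 and 1700066M21Rik are named because of their values, outside the naming rule.

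Matrix genes of fibroblasts stood mostly lower. Of 18 fibroblast and collagen genes 13 were lower, 6 of them with groups that did not overlap, against 0 higher with separate groups, beside 4.14% lower and 3.80% higher with separate groups over all tested genes. The median was -0.14. The RefSeq promoters of Col1a2, which encodes a chain of type I collagen, and of Postn, a matrix protein of fibroblasts, are shown as examples from this list. Both genes lay lower in every heterozygous array. Each line holds the 250 bases before the annotated start in build GRCm38.p6, on the plus strand, Col1a2 at chr6:4505368-4505617 and Postn, at the second of its 2 listed starts, at chr3:54360857-54361106. Capitals mark matches to 4 motifs that do not overlap one another here, searched on both strands. The GC box, GGGCGG, is in 32.7% of all 32851 listed promoters. The core of Smad-binding elements, CAGAC, is in 42.2% of them. The CCAAT box is in 33.8%, and the TATA box, TATAAA, is in 12.4%.
Col1a2: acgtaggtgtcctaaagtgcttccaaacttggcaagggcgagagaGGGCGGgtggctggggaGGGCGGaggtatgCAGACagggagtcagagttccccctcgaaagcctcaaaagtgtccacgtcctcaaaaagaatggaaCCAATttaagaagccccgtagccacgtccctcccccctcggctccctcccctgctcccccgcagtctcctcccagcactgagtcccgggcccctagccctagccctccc
Postn: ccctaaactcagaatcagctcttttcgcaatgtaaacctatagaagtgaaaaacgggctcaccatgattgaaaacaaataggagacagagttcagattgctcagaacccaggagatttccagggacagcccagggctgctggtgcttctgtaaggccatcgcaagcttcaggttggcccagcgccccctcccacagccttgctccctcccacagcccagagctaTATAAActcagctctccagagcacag
The Col1a2 window holds 2 GC boxes, 1 Smad-binding core and 1 CCAAT box. The Postn window holds 1 TATA box, while the window at the other Postn start holds 1 Smad-binding core and no TATA box. The windows of Col3a1 and Sparc were searched too and are not shown. Both hold the Smad-binding core, and that of Col3a1 also a TATA box. These matches are a description of the letters, not of binding.

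Postn read 12.65, 13.07 and 12.67 in wild-type and 12.18, 12.64 and 12.07 in heterozygous arrays, a difference of -0.50 (SE 0.15, unadjusted limma p = 0.0041). The groups only just failed to overlap, between wild-type array 1 and heterozygous array 2. Col1a2 read 13.45, 13.69 and 13.40 against 13.31, 13.31 and 13.12, a difference of -0.27 (SE 0.10). Here too the lowest wild-type array exceeded the highest heterozygous one. Col1a1, the other chain of type I collagen, read 9.95, 10.49 and 9.95 against 9.70, 9.91 and 9.75, a difference of -0.35 (SE 0.16). Col3a1, the type III collagen of soft tissue, stood at -0.23 (SE 0.08), Col5a2, a type V chain that nucleates fibrils, at -0.45 (SE 0.15), and Sparc, a collagen-binding matrix protein, at -0.23 (SE 0.12). Further probe sets, dimmer but above the filter, gave -0.69 for Col1a1, -0.48 and -0.27 for Col1a2, -0.52 for Col3a1, -0.55 for Col5a2 and, for Sparc, -0.23 and, in the opposite direction, 0.18. Wild-type array 2 was the highest wild-type array for each of these 6 genes and the richest in muscle. Without it the list stood at 10 of 18 lower with a median of -0.05 (-0.07 without heterozygous array 3 and -0.26 without wild-type array 3), Col1a1 at -0.17, Col1a2 at -0.17 and Postn at -0.36. With muscle content as a covariate the median was -0.04, Col1a1 stood at -0.27 and Col1a2 at -0.21.

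**Figure D3:**
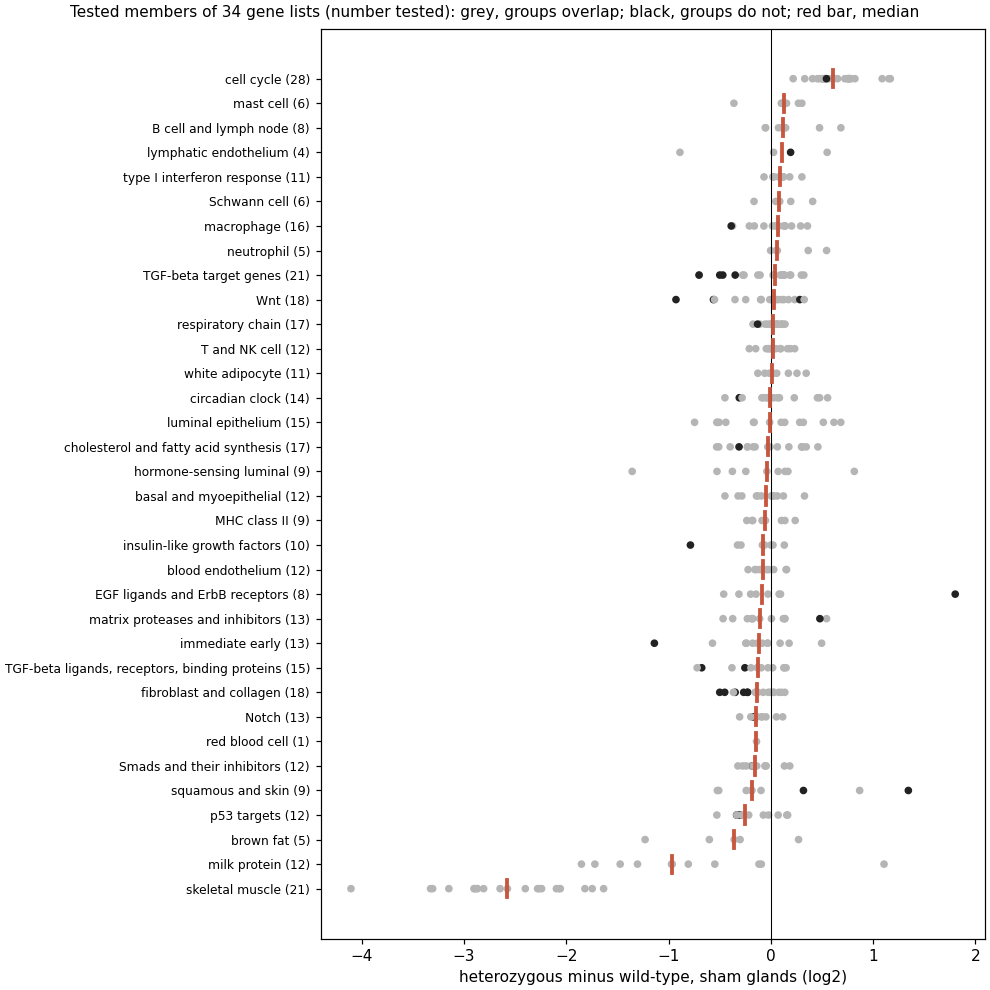
Heterozygous minus wild-type difference (log2, x axis) of each tested member of 34 gene lists in sham glands, lists ordered by their median (red bar), with the number of tested members in brackets; black points are genes whose groups do not overlap. Cell cycle members all lie above 0 with a median of 0.61, skeletal muscle members all below 0 with a median of -2.58, and 6 of 18 fibroblast and collagen members are black on the lower side.

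Cell cycle genes stood higher in the heterozygous mean, yet the arrays overlapped. All 28 tested members had a positive difference, with a median of 0.61, against 6400 of 12945 over all tested genes. The list mean was 8.50, 6.57 and 7.63 in wild-type and 7.61, 8.08 and 8.97 in heterozygous arrays. Wild-type array 1 was thus second only to heterozygous array 3, and wild-type array 2 was the lowest of the 6. Of these 28 members 1 had separate groups, beside 3.80% higher with separate groups over all tested genes. It was cyclin E1, Ccne1, which starts DNA replication, at 5.94, 5.60 and 5.68 against 6.06, 5.95 and 6.84, a difference of 0.54 (SE 0.21). Rrm2, which makes deoxynucleotides, differed by 1.09 (SE 0.57), thymidine kinase Tk1 by 1.17 (SE 0.62), the replication clamp Pcna by 0.52 (SE 0.28) and the helicase subunit Mcm7 by 0.41 (SE 0.26). Without wild-type array 2, 21 of 28 members were higher and the median was 0.21. It was 1.18 without wild-type array 1, 0.98 without heterozygous array 1 and 0.27 without heterozygous array 3. Without the 3 muscle-rich arrays it was 0.05, and without array 1 of both groups, the lymph-node-rich ones, it was 1.49.

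The milk protein list had 11 of 12 members below 0 and a median of -0.97. None of them had separate groups, beside 4.14% lower over all tested genes. None had an unadjusted limma p under 0.05, beside 2.16% lower over all tested genes. Beta-casein, Csn2, read 10.97, 12.02 and 10.80 in wild-type and 8.63, 9.80 and 10.93 in heterozygous arrays, a difference of -1.47 (SE 0.97). Heterozygous array 3 lay within the wild-type range. A second, dimmer Csn2 probe set gave -2.24 with separate groups. Csn1s1 stood at -1.30 (SE 0.92) and Csn1s2b at -1.85 (SE 1.17). The median was -0.47 without wild-type array 2, -0.56 without heterozygous array 1 and -1.44 without heterozygous array 3. It was -0.33 with muscle as a covariate and -0.01 without the 3 muscle-rich arrays. Without heterozygous array 3, 2 members had an unadjusted limma p under 0.05, beside 416 of 12945 tested genes. Fitted on the 6 sham glands alone, 2 members had an unadjusted limma p under 0.05, beside 340 of 12945.

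Luminal epithelial genes went both ways, with 7 of 15 higher and a median of -0.01, which ranged from -0.20 to 0.18 without heterozygous array 2 or 1. The simple-epithelium keratins Krt19 and Krt7 stood at 0.62 (SE 0.25) and 0.68 (SE 0.31), while the epithelial transcription factor Ehf stood at -0.74 (SE 0.32) and the mucin Muc1 at -0.53 (SE 0.23). For none of these 4 were the groups separate. Krt19 read 11.54, 11.62 and 12.66 in wild-type and 12.46, 12.49 and 12.73 in heterozygous arrays, so wild-type array 3 lay above 2 of the heterozygous arrays. Basal and myoepithelial genes had a median of -0.04 (6 of 12 higher) and hormone-sensing luminal genes of -0.04 (4 of 9 higher), and both turned sign with single arrays left out.

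Among single genes with separate groups, Krt4, a keratin of stratified epithelium, had the smallest p on the higher side. It read 4.70, 4.27 and 5.03 in wild-type and 6.70, 6.11 and 5.22 in heterozygous arrays. Its difference was 1.34 (SE 0.27), and a second probe set gave 1.82. Heterozygous array 3 stood close to wild-type array 3, and the other 2 heterozygous arrays were well above. Of 9 tested squamous and skin genes, which include Krt4, 6 were lower and 3 higher, with a median of -0.18. Epgn, epigen, a ligand of the EGF receptor, read 3.88, 4.10 and 5.56 against 5.88, 6.68 and 6.38, a difference of 1.80 (SE 0.40). Wild-type arrays 1 and 2 lay below the filter level of 4.15. Of 8 tested EGF ligands and ErbB receptors Epgn was the 1 with separate groups, beside 3.80% higher over all tested genes. The list median was -0.09. Akr1cl, an aldo-keto reductase, read 7.10, 6.37 and 6.71 against 8.63, 9.31 and 9.15, a difference of 2.31 (SE 0.65). This 4.94-fold higher level was the largest among the 15 genes named on the higher side. Tmem45b, a membrane protein, stood at 1.64 (SE 0.48), Papln, an extracellular matrix protein, at 0.92 (SE 0.21), Ly6k, a GPI-anchored surface protein, at 0.89 (SE 0.26), and the neural cell adhesion gene L1cam at 0.39 (SE 0.11).

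**Figure D4:**
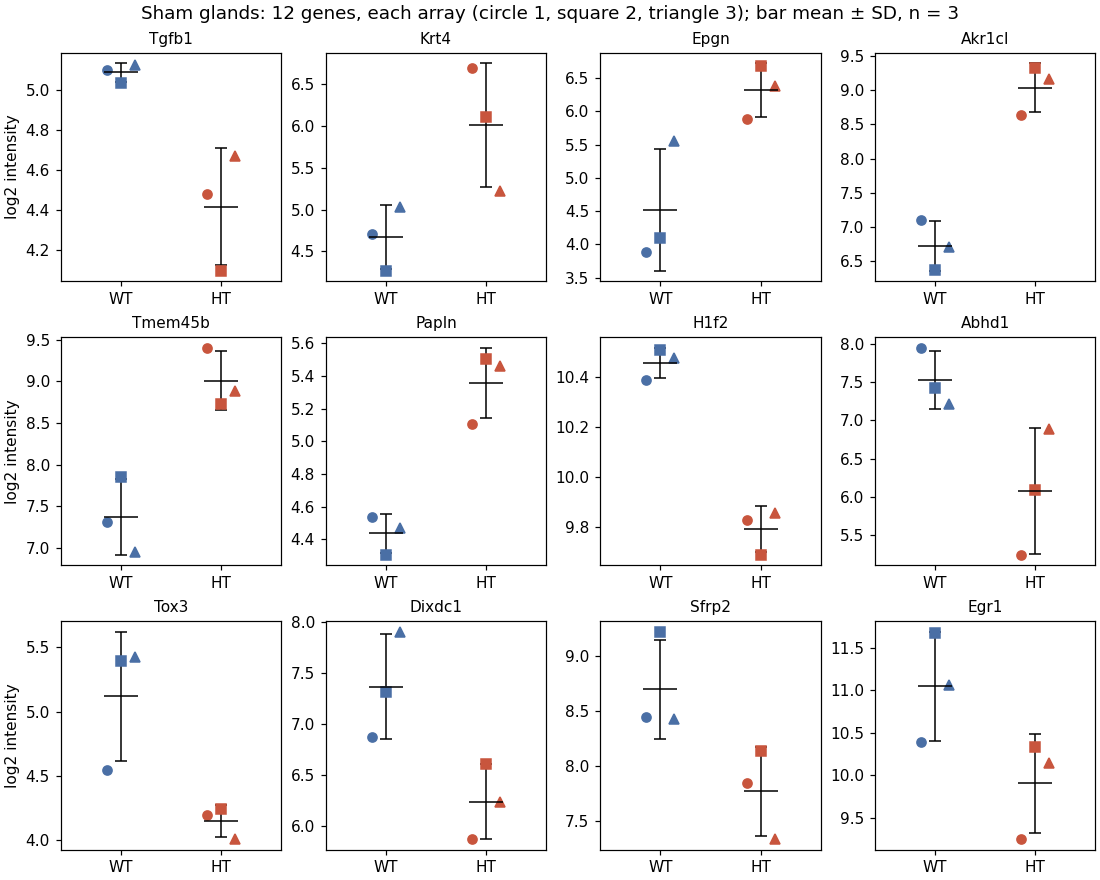
Log2 intensity of 12 genes in the 6 sham gland arrays, wild-type (WT, blue) and heterozygous (HT, red), with group mean and SD as black bars (n = 3) and a separate y axis per panel. In all 12 panels the groups do not overlap: Krt4, Epgn, Akr1cl, Tmem45b and Papln are higher in the heterozygous arrays and the other 7 genes lower.

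On the lower side the smallest p belonged to H1f2, a linker histone, with 10.39, 10.50 and 10.47 in wild-type and 9.83, 9.69 and 9.86 in heterozygous arrays. The spread within each group was small beside the difference of -0.66 (SE 0.13, unadjusted limma p = 0.000147). A second bright probe set gave -0.48 and a dimmer, further one 0.21. Abhd1 read 7.96, 7.42 and 7.21 against 5.23, 6.09 and 6.89, a difference of -1.46 (SE 0.31), with heterozygous array 3 nearest to wild-type. Tox3, an HMG-box chromatin protein, stood at -0.97 (SE 0.22) and Dixdc1, a Wnt pathway scaffold, at -1.13 (SE 0.27). Sfrp2, a secreted Wnt modulator made by fibroblasts, read 8.45, 9.22 and 8.43 against 7.85, 8.14 and 7.34, at -0.93 (SE 0.25). Gpr137c stood at -0.74 (SE 0.17) and Arrdc3, an arrestin-like protein, at -0.75 (SE 0.21). The 15 genes named on each side spanned 0.32 to 2.31 and -1.46 to -0.38.

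In smaller sets single genes stood apart. Of 13 immediate early genes 10 were lower, with a median of -0.11, which turned to 0.0022 without wild-type array 2, to 0.07 without heterozygous array 1 and to 0.22 without the 3 muscle-rich arrays, and was -0.29 without heterozygous array 2. Among them Egr1, a growth-factor-induced transcription factor, read 10.39, 11.67 and 11.06 in wild-type and 9.24, 10.33 and 10.14 in heterozygous arrays, at -1.14 (SE 0.36). Of 12 p53 targets 9 were lower, with a median of -0.25 (-0.16 and -0.14 without heterozygous array 1 or 2); the p53 antagonist Mdm2 stood at -0.29 (SE 0.13) and cyclin G1, Ccng1, at -0.33 (SE 0.12). Of 10 insulin-like growth factor genes 8 were lower, but 4 of 10 without heterozygous array 3, where the median turned from -0.07 to 0.02. Without wild-type array 2 the median was -0.02, and without array 1 of either genotype -0.17. Igfbp3, a binding protein, stood at -0.79 (SE 0.30), groups separate, and the clearance receptor Igf2r at -0.29 (SE 0.12). Clock genes were balanced at 7 of 14 higher, with Per1 at 0.56 (SE 0.22) and its activator Arntl at -0.31 (SE 0.13). The matrix protease Adamts1 stood at 0.48 (SE 0.20) and the macrophage receptor Cd14 at -0.39 (SE 0.14). Of 5 brown fat genes 4 were lower (3 without wild-type array 1 or heterozygous array 2), with Cox7a1 at -1.23 (SE 0.50) and Ppargc1a at -0.60 (SE 0.26); both are also made by muscle, both were highest in wild-type array 2 with overlapping groups, and the part of muscle in them was not tested.

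Immune, fat, vessel and respiratory chain sets had medians near that of all genes, but single arrays set them. The median was 0.02 for T and NK cell genes, 0.07 for macrophage, 0.01 for white adipocyte, -0.08 for blood endothelium, -0.06 for MHC class II, 0.09 for the type I interferon response and 0.02 for the respiratory chain. Each of the 7 turned sign when some single array was left out. The T and NK median ranged from -0.47 without heterozygous array 1 to 0.33 without heterozygous array 3, and was -0.33 with muscle content as a covariate. The interferon median ranged from -0.14 without heterozygous array 1 to 0.42 without heterozygous array 3, and the macrophage median from -0.12 without wild-type array 3 to 0.25 without heterozygous array 3. Among all members of these sets, Cd14 and Uqcrc2, a complex III subunit, had separate groups, both lower, beside 4.14% lower and 3.80% higher over all tested genes.

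The irradiated glands, whose arrays are separate from the sham arrays, held many of the same directions. Of the 492 genes that were higher with separate groups in sham glands, 226 (45.9%) were also higher in both irradiated comparisons, beside 3015 (23.3%) of all tested genes. Of the 536 lower ones, 333 (62.1%) were lower in both, beside 4058 (31.4%) of all. Muscle genes were lower in heterozygous glands at 4 weeks too, with a median of -1.98, and stood at 0.05 at 1 week. Over all tested genes the sham difference correlated with the 4-week difference at r = 0.52 and with the 1-week difference at r = 0.22. With muscle content as a covariate these values were 0.36 and 0.31. Genes are not independent replicates, so these are descriptions.

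Groups were separate in the same direction in sham, 1-week and 4-week glands for 18 genes that were higher (0.139%) and 30 that were lower (0.232%). Akr1cl was the furthest apart, at 2.31, 1.44 (SE 0.73) and 3.08 (SE 0.65) in the 3 conditions. Its 4-week wild-type arrays read 7.86, 8.59 and 4.70, and without the last, array 3, the 4-week difference was 1.91. Nnat, an imprinted gene of fat and endocrine tissue, stood at 1.29, 1.09 and 2.18, Prr32 at 0.70, 0.97 and 1.54, and Rgs3, a G protein regulator, at 0.48, 0.23 and 0.54. Without that same 4-week array Nnat stood at 1.14 and Rgs3 at 0.35 at 4 weeks, and without wild-type array 3 at 1 week Rgs3 stood at 0.15. Dimmer Rgs3 probe sets gave 0.67, -0.03 and 0.04 in sham glands. On the lower side Col1a2 stood at -0.27, -0.26 and -0.25 and Col1a1 at -0.35, -0.25 and -0.90. The chemokine receptor Cxcr4 stood at -0.72, -0.56 and -0.65, Gdpd1 at -0.66, -0.44 (-0.27 without heterozygous array 2) and -0.44, the calpain-family gene Capn6 at -0.37, -0.49 and -1.32, and the histone gene H2bc18 at -0.33, -0.81 and -0.48. Tyw5, Maip1, Prr32, Capn6 and H2bc18 had been picked from an average over all 17 glands, sham arrays included, so their values here are a description.

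**Figure D5:**
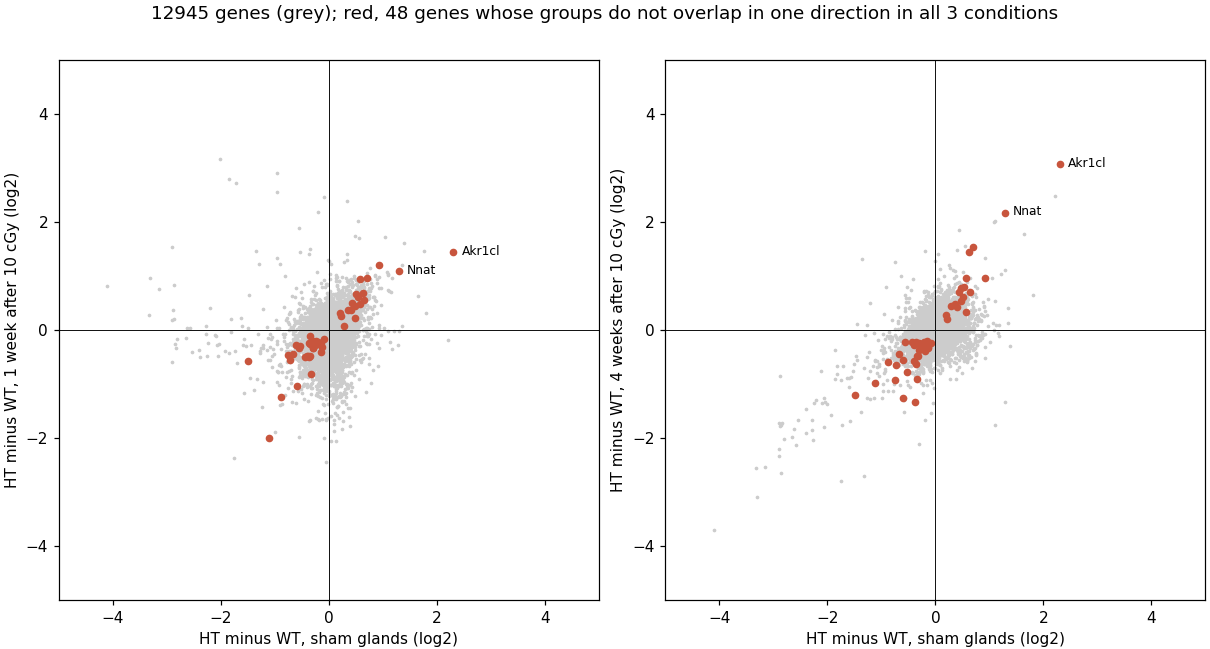
Heterozygous minus wild-type difference (log2) in sham glands (x axis) against that at 1 week (left) and 4 weeks (right) after 10 cGy, for 12945 tested genes (grey); red marks the 48 genes whose groups do not overlap in the same direction in all 3 conditions. Of the red points Akr1cl and Nnat lie furthest to the right, and the tail at the lower left of the right panel reaches below -2 on both axes.

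Tyw5 and Maip1 are adjacent on chromosome 1, and with the next gene, 1700066M21Rik, they formed a run of 3 neighbours that were higher by nearly the same amount. Tyw5, an enzyme of transfer RNA modification, read 7.08, 6.80 and 6.98 in wild-type and 7.38, 7.64 and 7.37 in heterozygous arrays, at 0.51 (SE 0.12). Maip1, a mitochondrial matrix protein, read 8.16, 7.87 and 7.78 against 8.52, 8.36 and 8.52, at 0.53 (SE 0.14). 1700066M21Rik read 6.76, 6.14 and 6.15 against 6.81, 6.96 and 7.00, at 0.57 (SE 0.20). All 3 had separate sham groups. In irradiated glands Tyw5 stood at 0.67 and 0.61, Maip1 at 0.62 and 0.80 and 1700066M21Rik at 0.43, where the groups overlapped (0.26 without heterozygous array 1), and 0.53. The 29 tested genes within 20 positions of Tyw5 had a median of -0.03, from -0.49 to 0.57, and 4 of them, these 2 neighbours included, were higher with separate groups, beside 3.80% of all tested genes. The window was centred on a gene picked for its difference.

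The genotype difference in sham glands was also set against that in irradiated glands by an interaction term. All sham glands were taken at 1 week, so the 4-week term changes time after treatment together with dose. No gene passed the adjusted threshold in limma for sham against 1 week (smallest adjusted p = 1.00) or 4 weeks (1.00), with 395 (3.05%) and 231 (1.78%) at an unadjusted p under 0.05. L1cam stood at 0.39 in sham glands, -0.29 (SE 0.13) at 1 week and -0.33 (SE 0.11) at 4 weeks, with separate groups in each. Papln stood at 0.92, 0.05 and -0.52, the last at -0.29 without heterozygous 4-week array 1. H1f2 stood at -0.66, 0.03 and -0.12, and its 1-week sign turned with single arrays. The cell cycle inhibitor Cdkn1a stood at -0.02 in sham glands and -0.78 (SE 0.15) at 1 week, and the phosphatase Dusp1 at 0.09 and, at 4 weeks, 1.14 (SE 0.16). Slc39a14, a metal transporter, stood at -0.28 and 0.82 (SE 0.23), and the junction scaffold Magi1 at -0.23 and 0.37 (SE 0.13), at 1 week. Krt4 and Epgn, large in sham glands, stood at 0.08 (SE 0.31) and 0.32 (SE 0.45) at 1 week, where Epgn ranged from 0.02 to 0.62 with 1 array left out, and at 0.40 (SE 0.27) and 0.65 (SE 0.40) at 4 weeks.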

How the data were processed

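Affymetrix 3' IVT arrays of 65 samples gave 1 deposited table of 45101 probe sets. The authors deposited gland values as linear intensity, normalized with RMA per the submitters' processing notes, and log2 was taken here. The 48 columns of other samples were not used. Of the probe sets 34958 had 1 gene, 932 several and 9211 none, and 99.4% of the first matched a RefSeq gene table (GRCm38.p6). Each of 18194 genes was represented by its brightest probe set, by the mean of the 17 gland arrays, and genes under the 40th percentile of the mean (4.15) were left out, 5249 in all. limma 3.58.1 (R 4.3.3) fitted 6 groups over 17 arrays (11 residual degrees of freedom, variance trend), two-sided, with Benjamini-Hochberg adjustment over 12945 genes at 0.05, and was checked on simulated data. Arrays give no read depth, and their number limits the precision.

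Members and gene lists (34 lists, 443 of 473 genes measured) were chosen with earlier results of these data known. Named genes are Tgfb1, the 15 with the smallest p in each direction among genes with separate groups, up to 4 per list by p and up to 2 by level, the 3 with the smallest interaction p in each direction, genes with separate groups within 20 positions of Tgfb1, and genes that earlier results of these data tied to the genotype. Exceptions are stated. Alternatives covered the samples fitted, the replicate block, probe set choice, filter, normalization, variance trend, array weights, a muscle covariate and each array left out. Leaving out lymph-node-rich or muscle-rich arrays, or each irradiated array (values only), was added after the data were seen.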

Additional observations from a re-analysis of the deposited data

How the results depend on the processing

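Tgfb1 kept its direction under every alternative that tested it (it lay below the 60th percentile filter). The count of genes past the adjusted threshold was 0 to 2 with 1 array left out (2 without heterozygous array 3) and 0 in the other alternatives. The 460 genes at an unadjusted limma p under 0.05 became 696 with no filter, 267 with a muscle covariate, 956 without the lymph-node-rich arrays and 335 to 1022 with 1 array left out. The 1028 genes with separate groups became 1559 with no filter and 1877 to 3082 with 1 array left out, where fewer arrays separate more easily. They were not recomputed where a setting leaves the values alone. The muscle list median was 0.0643 with the covariate and 0.12 without the muscle-rich arrays, the cell cycle median 1.49 without the lymph-node-rich arrays and the milk protein median -0.0065 without the muscle-rich arrays. Tgfbr2 turned to 0.0143 with the mean of probe sets and ranged from -0.2435 to 0.1100 with 1 array left out, above 0 without wild-type array 2 or heterozygous array 3. Cdkn1a turned to 0.0029 with quantile normalization and 0.0009 with array weights, and ranged from -0.0815 to 0.0380 with 1 array left out. Dusp1 ranged from -0.0611 to 0.2927, below 0 without wild-type array 1 or heterozygous array 2. The cause of these turns was not tested. Arrays of the same replicate number had deviations from their group means that correlated at -0.07, -0.03 and 0.03. With 3 arrays per group these values cannot show whether replicate numbers pair the arrays. With the replicate block 490 genes were at an unadjusted limma p under 0.05 and 0 past the adjusted threshold. The interaction could not be fitted on the 6 sham glands alone. No probe-level background was used, so levels near the filter are the least certain.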
